A study of Mus musculus with 9 samples.

Results

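The genes described are 9 components of the aryl hydrocarbon receptor (AhR) pathway: the receptor gene Ahr, its dimer partners Arnt and Arnt2, the chaperones Hsp90ab1, Hsp90aa1 and Ptges3, the coactivator Ncoa1, and the repressors Ahrr and Tiparp. They were taken by gene symbol from transcript tables that cover 28932 genes, and each gene was represented by its transcript with the highest mean read count. The samples were total RNA of mouse Hepa 1 WT cells, a hepatoma line whose cell line label reads HC1C. In each of 3 groups, 3 libraries were sequenced: control cells, cells given 10 nM FICZ (6-formylindolo[3,2-b]carbazole) and cells given 50 uM tryptamine, all for 6 h. The control is called untreated in one label and a vehicle control in another. The labels give no genetic change to any group, and all groups are of 1 cell line. The labels do not say whether libraries of a group came from separate cultures, so the p-values measure the spread between these libraries, which may be technical.

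AhR is a transcription factor of the bHLH-PAS family that is held in the cytosol in a complex with an HSP90 dimer and the cochaperone encoded by Ptges3. A ligand sends it to the nucleus, where it exchanges the chaperones for ARNT, binds the DNA core GCGTG and recruits coactivators to genes such as Cyp1a1. The pathway is also known for feedback: AHRR competes with AhR for ARNT and for DNA, and TIPARP, a mono-ADP-ribosyltransferase, represses AhR; both genes are known AhR targets. FICZ is a high-affinity AhR ligand derived from tryptophan, and tryptamine is a tryptophan-derived amine.

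With FICZ, Tiparp rose 1.67-fold and was the only member past an adjusted p of 0.05 (edgeR quasi-likelihood test, Benjamini-Hochberg adjustment over 12362 genes). Of the 9 members, 7 had counts high enough to be tested and 1 of these 7 was called with FICZ, where 0.113% of all tested genes were called. With tryptamine, 0 of 7 members were called against 0.00809% of all genes, although Tiparp was 1.39-fold higher and had an unadjusted p under 0.05, as did 5.14% of all genes. Between FICZ and tryptamine, 0 of 7 members and 0% of genes were called, and 1 member, again Tiparp, had an unadjusted p under 0.05, next to 1.72% of genes. DESeq2 called 0 members in both of these comparisons. The receptor, its partner Arnt, both HSP90 genes, Ptges3 and Ncoa1 had estimates from -0.66 to 0.32 on the log2 scale against control, and none passed. The FICZ and tryptamine comparisons share the 3 control libraries. The median absolute log2 difference of the 7 tested members from control was 0.17 with FICZ and 0.12 with tryptamine, next to 0.17 and 0.16 over all genes. Without control replicate 3, described below, it was 0.04 and 0.09, next to 0.11 and 0.09 over all genes.

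Total counts over genes ranged from 11594856 to 16715865 per library. Control replicate 3 stood apart: across genes its log2 levels correlated with those of the other libraries at 0.951 to 0.957, against at least 0.985 between any 2 of those others. Relative to the other controls it held more reads of short transcripts and fewer of long ones, with a median log2 difference of 0.64 over 1138 genes of up to 1000 nt and of -0.84 over 1330 genes of more than 6000 nt. Results are therefore given with and without it, and without it 12541 genes were tested, of which 0.805% were called with FICZ, 0.199% with tryptamine and 0.136% between the treatments. Cyp1a1, the cytochrome P450 gene used as the readout of AhR activation, averaged 59.2 CPM (read counts scaled to a common library size) among controls, 1003 after FICZ and 702 after tryptamine, a log2 change of 4.08 and 3.57. Among hepatoma markers Alb, Afp, Trf, Krt8 and Krt18 were present at 1 CPM or more, while Apoa1, Apob, Ttr and Hnf4a were not matched by symbol among genes with a count. This need not mean a count of 0, since entries under a joint name of several genes were mostly left out. Of the fibroblast or stellate markers 5 of 7, and of the bile duct markers 4 of 5, also reached 1 CPM. The sums that follow cover matched markers only. The summed level of the hepatoma markers ran from 4854 to 6817 CPM in control, from 4375 to 4513 with FICZ and from 4604 to 4801 with tryptamine, every treated library lying below every control. That of the fibroblast or stellate markers ran from 979 to 1325 CPM in control, from 1296 to 1414 with FICZ and from 1248 to 1422 with tryptamine, and that of the bile duct markers from 1112 to 1567, 1042 to 1089 and 1016 to 1095 CPM, again with the treated libraries below all controls. In each of these lists control replicate 3 was the extreme control. The part of these markers in any member's result was not tested.

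**Figure D1:**
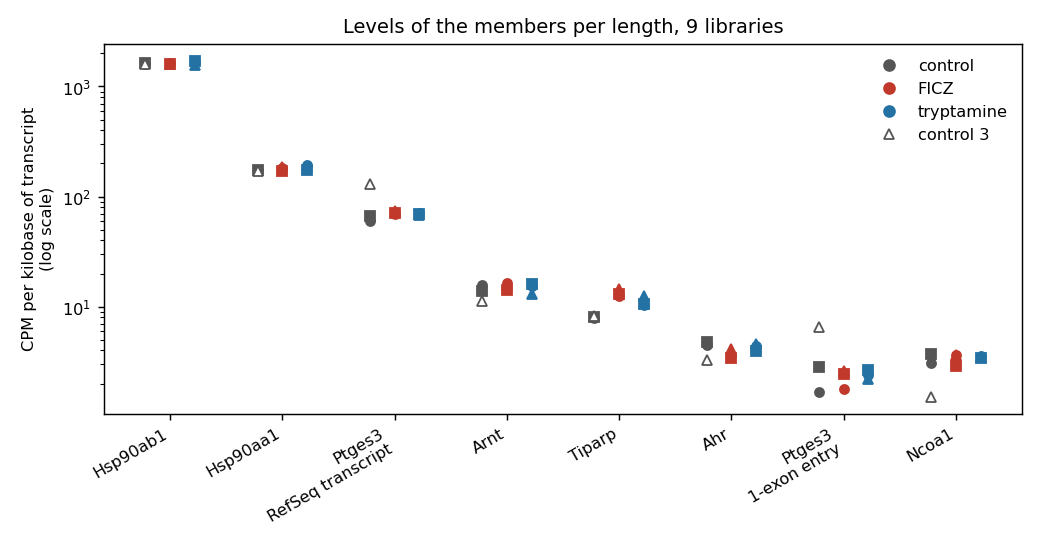
Level of each tested member in every library, in CPM per kilobase of its transcript on a log axis; each marker is 1 library, coloured by group, and the open triangle is control replicate 3. The control means run from 1599.8 for Hsp90ab1 to 2.78 for Ncoa1, and control replicate 3 lies apart from the other libraries for both Ptges3 entries and for Ncoa1.

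Divided by transcript length, the members' control levels spanned a wide range. Hsp90ab1, the constitutive cytosolic HSP90, stood at 1599.8 ± 15.3 CPM per kilobase (SD, n = 3) and Hsp90aa1, its inducible counterpart, at 173 ± 2.34. The RefSeq transcript of Ptges3, the cochaperone also called p23, followed at 85.4 ± 38.0, or 63.6 without control replicate 3. Arnt stood at 13.6 ± 2.29, Tiparp at 8.04 ± 0.192, Ahr at 4.15 ± 0.777 and Ncoa1 at 2.78 ± 1.14 CPM per kilobase. The control range of each of these lay above that of the next, except for Ahr and Ncoa1. Their control ranges overlapped, from 3.27 to 4.73 and from 1.52 to 3.74, though within each control library Ahr was above Ncoa1. That overlap disappeared without control replicate 3, since the lower of the other controls held 4.46 for Ahr and the higher held 3.74 for Ncoa1. On this per-length scale the 3 chaperones (Ptges3 by its RefSeq transcript) were the most abundant members, and the receptor was below its partner Arnt in each of the 9 libraries, by 2.89 to 4.49 times.

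By mean the order of these members was the same in all 3 groups; the Ptges3 clone, not among them, stood above Ncoa1 in control and below it with both treatments and in control without replicate 3. With FICZ Tiparp reached 13.4 ± 0.931 CPM per kilobase, next to Arnt at 15.4 ± 1.19. Their ranges over libraries overlapped, 12.6 to 14.4 for Tiparp and 14.0 to 16.3 for Arnt, but within each FICZ library Arnt was above Tiparp. With tryptamine, Tiparp at 11.2 ± 1.10 stayed under Arnt at 14.8 ± 1.503, without overlap. The FICZ ranges of Ahr at 3.72 ± 0.339 and Ncoa1 at 3.38 ± 0.447 also overlapped, while within each FICZ library Ahr was above Ncoa1. Arnt2 and Ahrr lay below all of these, at no more than 0.033 CPM per kilobase in any group.

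**Figure D2:**
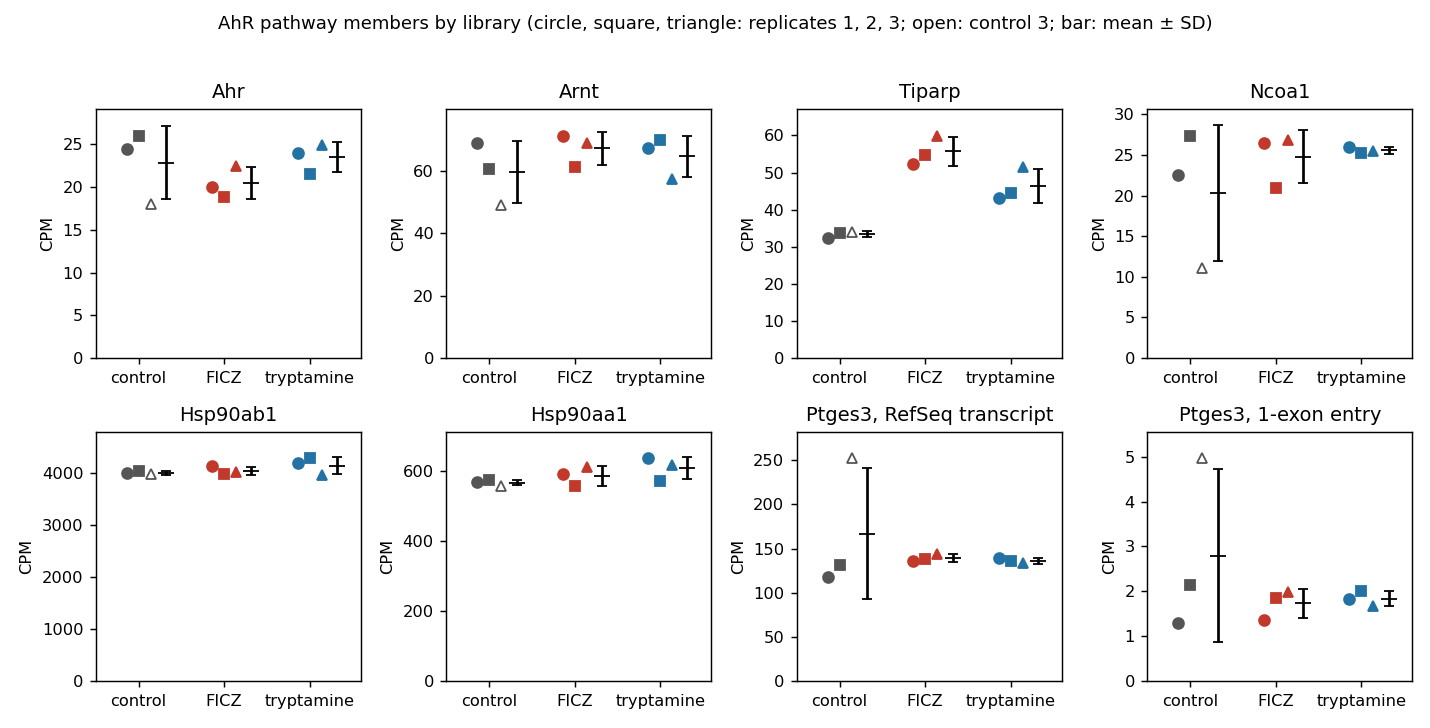
CPM of the tested members by library, with replicates 1, 2 and 3 as circle, square and triangle and the mean ± SD beside each group; every axis starts at 0. All FICZ and tryptamine libraries lie above all controls for Tiparp, and control replicate 3, drawn open, is apart from the other controls for Ahr, Arnt, Ncoa1 and both Ptges3 entries.

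The receptor gene Ahr (gene ID 11622, transcript NM_013464, 5494 nt, 11 exons) held 24.5, 26.0 and 18.0 CPM in control replicates 1, 2 and 3. It held 20.0, 18.8 and 22.5 CPM with FICZ and 24.0, 21.6 and 24.9 CPM with tryptamine. The lowest of all 9 values was control replicate 3, and the FICZ values lay between it and the other controls. The FICZ minus control difference was -0.16 ± 0.15 (log2 ± SE; 95% interval -0.50 to 0.18, adjusted p = 0.666). Without control replicate 3 it was -0.31 ± 0.12 (95% interval -0.56 to -0.05, unadjusted p = 0.0221, adjusted p = 0.386), and all 3 FICZ libraries lay below both remaining controls. In that comparison 14.0% of all genes were lower without overlap, so the lower Ahr values were not set apart from the other genes by this measure. With tryptamine the difference was 0.04 (95% interval -0.30 to 0.38), and without control replicate 3 it was -0.10 (-0.36 to 0.16). FICZ against tryptamine gave -0.20 (-0.54 to 0.14), and the groups overlapped.

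The 8 Ahr entries of the tables seem to share reads and are not taken as separate measurements. Against controls 1 and 2, FICZ was lower in 8 of 8 entries, by -0.90 to -0.20 on the log2 scale of mean CPM. Against all 3 controls the same ratio was below 0 in 5 and above 0 in 3. Control replicate 3 itself ranged over the 7 entries with a read in it from -2.06 (a 3073 nt entry of 11 exons) to 1.04 (a 1277 nt entry of 1 exon) relative to the mean of the other controls. For tryptamine the entries split, with 6 below and 2 above controls 1 and 2. In the authors' deposited table the Ahr transcript had log2 changes of -0.20 with FICZ (adjusted p = 0.546) and 0.00 with tryptamine.

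Arnt (gene ID 11863, NM_001037737, 4370 nt, 22 exons), the nuclear partner without which AhR does not bind its core sequence, held 69.0, 60.6 and 49.1 CPM in the controls. With FICZ it held 71.3, 61.4 and 68.9 CPM and with tryptamine 67.2, 69.8 and 57.3 CPM. The 3 groups overlapped, and control replicate 3 was again the lowest library. Differences from control were 0.17 ± 0.14 with FICZ (95% interval -0.14 to 0.48, adjusted p = 0.636) and 0.12 ± 0.14 with tryptamine (-0.19 to 0.43, adjusted p = 0.768). Leaving out control replicate 3 gave 0.05 (-0.16 to 0.26) and -0.0036 (-0.21 to 0.20). Those upper bounds correspond to 1.19-fold with FICZ and 1.15-fold with tryptamine.

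Arnt2 (gene ID 11864, NM_007488, 5991 nt), a paralog of Arnt known mainly from the nervous system, was close to the detection limit. It had 0, 2 and 2 reads in the controls, 3, 4 and 2 with FICZ and 6, 0 and 0 with tryptamine. The 4, 9 and 6 reads of the groups correspond to 0.0977, 0.198 and 0.139 CPM, and counting alone gives 95% Poisson intervals of 0.0266 to 0.25, 0.0903 to 0.375 and 0.0509 to 0.302 CPM. These intervals overlap, and no difference was detectable at this depth. The intervals cover counting error only, since reads of a library are not independent molecules.

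Hsp90ab1 (gene ID 15516, NM_008302, 2506 nt, 11 exons) had the highest counts of the members. It held 3998, 4052 and 3978 CPM in control, 4133, 3984 and 4033 with FICZ, and 4194, 4288 and 3964 with tryptamine. All 9 libraries lay close together and the groups overlapped. Its differences from control were 0.01 ± 0.07 with FICZ (95% interval -0.13 to 0.16) and 0.05 ± 0.07 with tryptamine (-0.10 to 0.19), and without control replicate 3 they were 0.01 (-0.08 to 0.10) and 0.04 (-0.05 to 0.13). These are the narrowest intervals among the members, and without control replicate 3 they reach no more than 1.07-fold with FICZ and 1.10-fold with tryptamine.

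Hsp90aa1 (gene ID 15519, ENSMUST00000094361, 3281 nt, 11 exons) held 568, 573 and 558 CPM in control, 592, 556 and 610 with FICZ, and 636, 573 and 617 with tryptamine. The groups overlapped. Its differences from control were 0.05 ± 0.08 with FICZ (95% interval -0.13 to 0.23, adjusted p = 0.805) and 0.10 ± 0.08 with tryptamine (-0.07 to 0.28, adjusted p = 0.741). Leaving out control replicate 3 gave 0.04 (-0.09 to 0.16) and 0.09 (-0.03 to 0.22). Per length, Hsp90ab1 exceeded Hsp90aa1 by 8.41 to 9.80 times in the 9 libraries. The paralogs encode similar proteins, and how reads that match both were counted is not given, so their split is uncertain. Of the 25-base windows of the longest GENCODE M21 transcript of Hsp90aa1, 9 of 3257 (0.276%) also occur in that of Hsp90ab1, and of the 50-base windows 0 of 3232.

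The table lists 17 entries for Hsp90aa1 and 12 for Hsp90ab1, many of them fragments, and these show how control replicate 3 differed along a gene. Entries were placed along the exonic bases of their gene in GENCODE M21, from 0 at the 5′ end to 1 at the 3′ end, where the identifier matched and the length differed by no more than 5 nt. For Hsp90aa1, the entry centred at 0.173 had a log2 ratio of control replicate 3 over the mean of controls 1 and 2 of -1.01, the one at 0.429 had -0.25, and the one at 0.581 had 0.16. For Hsp90ab1 the ratio ran from -0.78 at 0.105 through -0.28 at 0.390 to 0.31 at 0.639. Entries near the 5′ end were low in that library and entries toward the 3′ end were high, while the full-length transcripts, at -0.02 and -0.01, were near balance. The placed fragments of Arnt had negative ratios as well, from -1.58 to -0.33, and so did those of Tiparp, at -1.09 and -0.60.

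**Figure D3:**
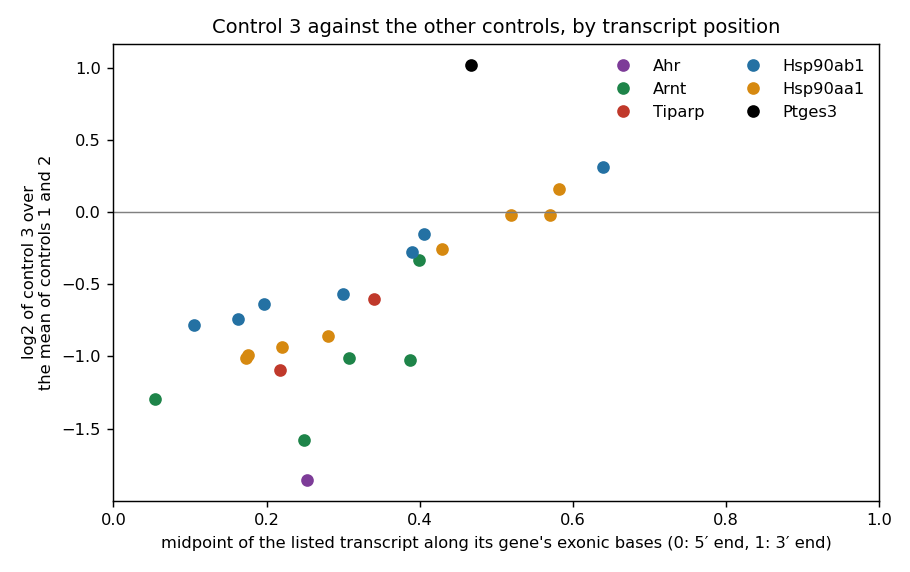
Log2 ratio of control replicate 3 over the mean of controls 1 and 2 for the members' transcripts found in GENCODE M21, against the position of the transcript's midpoint along its gene; each point is 1 listed transcript. The ratio is below -0.5 for the Hsp90 fragments near the 5′ end and above 0 for those furthest toward the 3′ end.

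That gradient carried into the ratios to control. Over the 17 Hsp90aa1 entries, FICZ over all 3 controls ran from -0.52 to 0.28 on the log2 scale, and FICZ over controls 1 and 2 from -0.02 to 0.20. Over the 12 Hsp90ab1 entries, the corresponding ranges were -0.23 to 0.28 and -0.07 to 0.06. In the authors' deposited table, which used all 3 controls, 1 of 17 Hsp90aa1 entries was lower with FICZ at an adjusted p of 7.31e-05 and with tryptamine at 0.018, and 1 of 12 Hsp90ab1 entries was lower with FICZ at 0.0474. Among all tested transcripts there, 5.61% with FICZ and 1.45% with tryptamine had an adjusted p under 0.05. The Hsp90aa1 entry is a 458 nt piece of 1 exon whose log2 ratio of FICZ to controls 1 and 2 was -0.02.

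**Figure D4:**
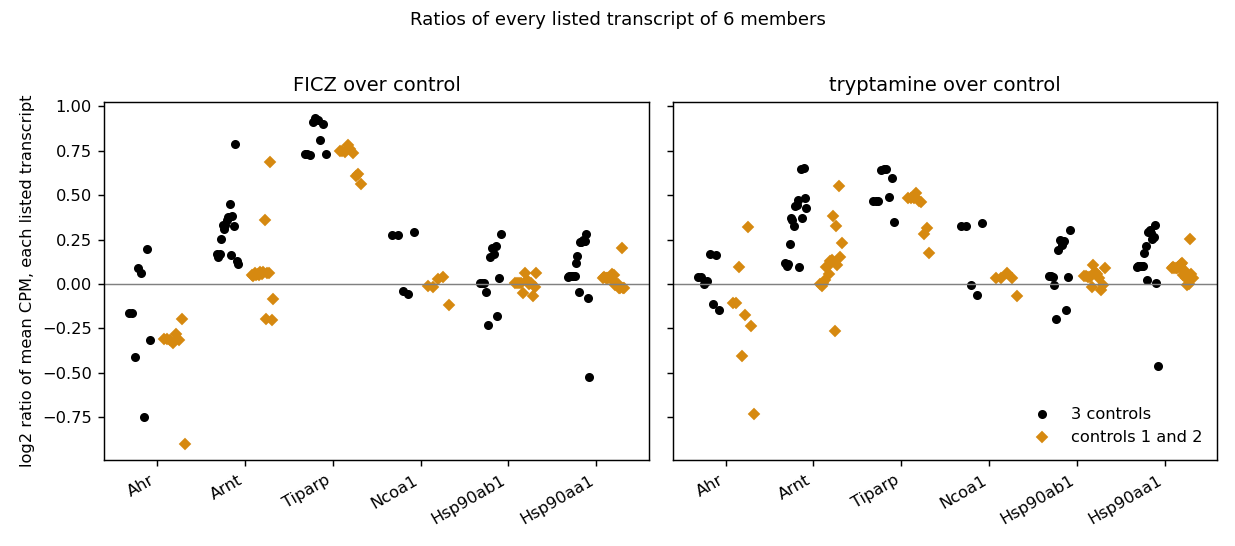
Log2 ratio of mean CPM for every listed transcript with at least 30 control reads of 6 members, with FICZ (left) and tryptamine (right); black circles use all 3 controls and orange diamonds controls 1 and 2. The Tiparp entries lie above 0 throughout, and the Hsp90 entries draw together without control replicate 3. Hsp90ab1 then runs from -0.07 to 0.06 with FICZ and from -0.03 to 0.10 with tryptamine. Hsp90aa1 then lies mostly above 0, from -0.02 to 0.20 with FICZ and from -0.01 to 0.25 with tryptamine.

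Ptges3 (gene ID 56351) encodes the cochaperone that stabilises the HSP90 complex of unliganded AhR. By symbol alone it was represented by a 760 nt clone of 1 exon (AK088321) with 266 reads in all, because the RefSeq transcript NM_019766 (1954 nt, 8 exons) is listed under a joint name with Baz2a, its neighbour in RefSeq; both are given. The RefSeq transcript held 117, 131 and 252 CPM in control, 136, 138 and 144 with FICZ, and 140, 135 and 133 with tryptamine. Control replicate 3 was the highest of the 9 libraries, 2.03 times the mean of the other controls, and each treatment overlapped control only through it, while FICZ and tryptamine overlapped each other. With all libraries the differences were -0.26 ± 0.23 with FICZ (95% interval -0.77 to 0.25, adjusted p = 0.649) and -0.29 ± 0.23 with tryptamine (-0.80 to 0.22, adjusted p = 0.741). The sign turned without control replicate 3, to 0.16 ± 0.07 (0.01 to 0.31, unadjusted p = 0.0363, adjusted p = 0.452) and 0.13 ± 0.07 (-0.02 to 0.28, adjusted p = 0.829), and every treated library lay above both controls, as did 13.9% and 9.85% of all genes. In the authors' deposited table this transcript was lower with FICZ, at a log2 change of -0.34 and an adjusted p of 0.0275, and at -0.38 with tryptamine (adjusted p = 0.08). The 1-exon clone held 1.28, 2.13 and 4.96 CPM in control, 1.35, 1.85 and 1.98 with FICZ, and 1.84, 2.003 and 1.68 with tryptamine; its differences of -0.66 and -0.58 became 0.02 and 0.10 without control replicate 3.

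Ncoa1 (gene ID 17977, NM_010881, 7329 nt, 23 exons), a coactivator with histone acetyltransferase activity, held 22.5, 27.4 and 11.1 CPM in control. It held 26.5, 21.0 and 26.8 CPM with FICZ and 26.0, 25.2 and 25.5 with tryptamine. Control replicate 3 was the lowest library, and the groups overlapped with or without it. The differences from control were 0.28 ± 0.26 with FICZ (95% interval -0.29 to 0.84, adjusted p = 0.657) and 0.32 ± 0.25 with tryptamine (-0.24 to 0.88, adjusted p = 0.741). They were, with that library left out, -0.01 (-0.28 to 0.26) and 0.03 (-0.23 to 0.30). Ncoa1 is the longest of the tested members, and its control replicate 3 value lay in the direction of the length trend of that library, as did those of Ptges3 (higher) and of Ahr and Arnt (lower). The Tiparp value (1.02 times the mean of the other controls) and the Hsp90ab1 value (0.988 times) did not: genes over 4000 and up to 6000 nt had a median log2 difference of -0.37 and those over 2000 and up to 3000 nt one of 0.12. With a per-library length trend removed, FICZ minus control was 0.07 for Ncoa1 and -0.12 for the Ptges3 RefSeq transcript, and tryptamine minus control was 0.14 and -0.16.

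Ahrr (gene ID 11624, NM_009644, 4732 nt, 11 exons), the AhR repressor, was barely detected. Its transcript had 1 read in control replicate 1 and 0 reads in the other 8 libraries. Taking 3 counts over a group as the limit that a count of 0 allows, the level could be up to 0.0658 CPM in the 3 FICZ libraries and up to 0.0693 CPM in the 3 tryptamine libraries. With both groups at or under this limit, no fold is given, and a rise that stays under it was not detectable. Cyp1a1 held 951 to 1037 CPM in the same FICZ libraries. The Ahrr promoter is shown because it holds the AhR core 3 times, in capitals (GCGTG, or CACGC on the opposite strand). The RefSeq window runs from 250 bases before to 50 bases after the start (GRCm38.p6, chr13:74292282-74292581, minus strand, 5′ to 3′):

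Ahrr: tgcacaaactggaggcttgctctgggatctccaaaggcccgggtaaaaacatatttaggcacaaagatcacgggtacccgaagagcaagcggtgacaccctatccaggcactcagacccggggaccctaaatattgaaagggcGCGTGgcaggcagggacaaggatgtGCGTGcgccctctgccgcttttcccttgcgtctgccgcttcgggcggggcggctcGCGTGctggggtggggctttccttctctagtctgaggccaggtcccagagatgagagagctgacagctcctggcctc

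The 3 matches begin 107, 82 and 27 bases upstream of the start, all on the strand of the gene. Of 32851 such windows of 27025 genes, 32.4% hold the core on either strand at least once and 3.91% at least 3 times. A match is a description of the letters and not a binding site.

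Tiparp (gene ID 99929, NM_178892, 4154 nt, 6 exons) encodes the mono-ADP-ribosyltransferase that modifies AhR and lowers its activity. Its RefSeq window, shown because this is the member that rose, holds the core once, on the opposite strand, beginning 170 bases upstream of the start (GRCm38.p6, chr3:65528197-65528496, plus strand, 5′ to 3′):

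Tiparp: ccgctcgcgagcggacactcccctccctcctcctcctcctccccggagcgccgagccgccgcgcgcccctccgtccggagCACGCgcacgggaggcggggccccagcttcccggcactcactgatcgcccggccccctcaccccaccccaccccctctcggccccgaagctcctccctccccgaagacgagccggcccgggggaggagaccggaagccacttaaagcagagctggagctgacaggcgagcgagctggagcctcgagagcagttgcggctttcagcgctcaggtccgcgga

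Of the 9 members, 6 had such a window, and 5 of these held the core: Ahrr, Tiparp, Arnt with 1 match, and Ptges3 and Ncoa1 with 2 each. Arnt2 had 0 matches. The GC content of the 6 windows ran from 59.3% for Arnt to 84.7% for Ncoa1. The share of 32.4% over all windows is not matched for GC content, so whether the members hold the core more often was not tested. The 4 members with the core other than Tiparp were not called in any comparison or had too few reads to be tested.

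Tiparp held 32.5, 33.8 and 33.9 CPM in control. It held 52.4, 54.7 and 60.0 CPM with FICZ and 43.1, 44.4 and 51.5 CPM with tryptamine. Every FICZ library was above every tryptamine library, and every tryptamine library was above every control. Control replicate 3 was at the level of the other controls for this transcript. Over the 9 listed Tiparp entries, its log2 ratio to the mean of controls 1 and 2 ran from -1.09 to 0.05, with 6 below 0. Of all genes, 8.22% were higher without overlap with FICZ, 4.98% with tryptamine and 5.65% in FICZ over tryptamine, and Tiparp was the 1 member in each.

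The FICZ change of Tiparp was 0.74 ± 0.11 (95% interval 0.49 to 0.98, or 1.41 to 1.98-fold; edgeR quasi-likelihood test, adjusted p = 0.0396, higher in 3 of 3 libraries). Without control replicate 3 it was 0.75 ± 0.11 with an adjusted p of 0.000119. The call was not retained in every fit: it was lost when either other control, any FICZ or any tryptamine library was left out (adjusted p from 0.0559 to 0.267, log2 from 0.68 to 0.78), when only the 6 libraries compared were used (0.194), with the replicate number as a block (0.114), and with counts summed over transcripts (0.0578). DESeq2's Wald test gave an adjusted p of 1.03e-06. The size of the change lay between 0.65 and 0.80 in all 17 alternatives.

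With tryptamine Tiparp changed by 0.47 ± 0.11 (95% interval 0.23 to 0.72; unadjusted p = 0.00142, adjusted p = 0.741) and did not pass. Without control replicate 3 the difference was 0.48 ± 0.11 and the adjusted p 0.0592, and it passed in 0 of 17 alternatives. FICZ exceeded tryptamine by 0.27 ± 0.11 (0.02 to 0.51, unadjusted p = 0.0348, adjusted p = 1), and by the same size without control replicate 3 (0.08 to 0.45, adjusted p = 0.605). The doses of the 2 compounds differ, so this is a comparison of 2 treatments and not of the compounds at matched dose. By comparison, Cyp1a1 was 1.43-fold higher with FICZ than with tryptamine (95% interval 1.25 to 1.64) and Tiparp 1.20-fold (1.02 to 1.42).

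All 9 Tiparp entries were higher in both treatments. FICZ over the 3 controls ran from 0.73 to 0.93 and over controls 1 and 2 from 0.56 to 0.78 on the log2 scale, and tryptamine from 0.35 to 0.65 and from 0.18 to 0.51. The entries seem to share reads as well, and the smallest values against controls 1 and 2 belonged to the shortest entry of 594 nt. With FICZ, the authors' deposited table gave 8 of 9 Tiparp entries an adjusted p under 0.05, and with tryptamine 0 of 9, the lowest being 0.0539. Over all tested transcripts there, the share under 0.05 was 5.61% with FICZ and 1.45% with tryptamine. The authors' deposited lists of higher genes, 81 for FICZ and 22 for tryptamine, name 0 of the 9 members. The transcript tables cover 28932 genes, so lists of this size leave out most genes. The lowest mean log2 change in those lists is 1.01.

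**Figure D5:**
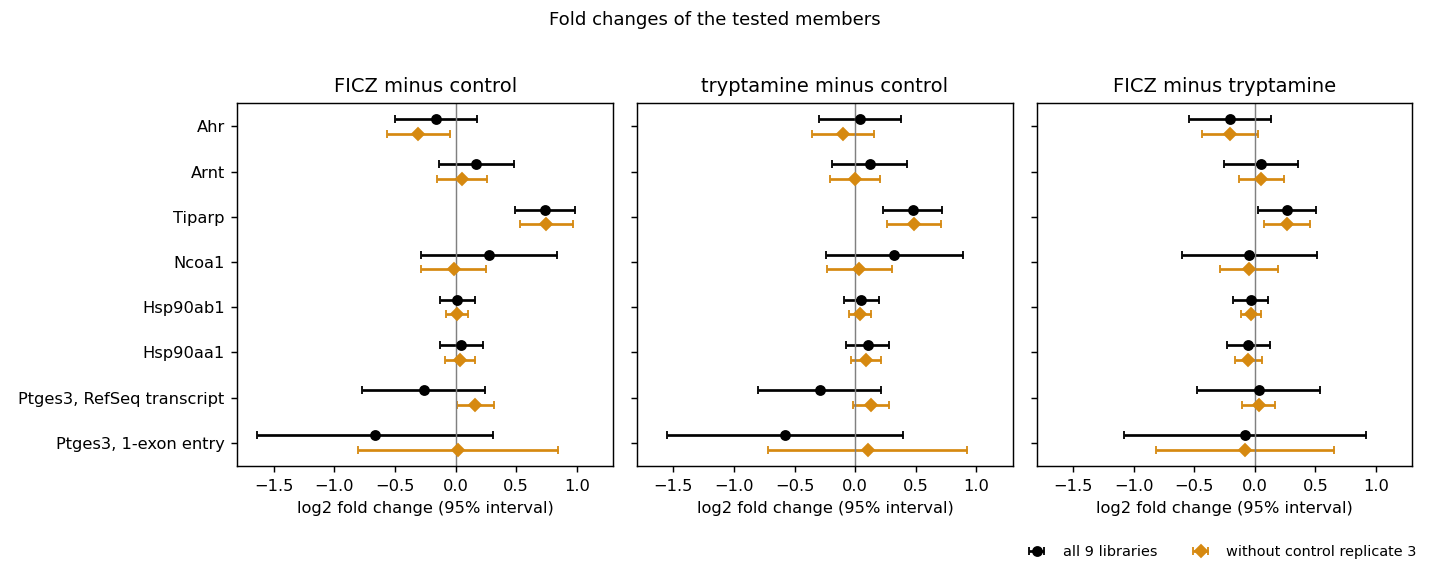
Log2 fold changes of the tested members with 95% intervals in the 3 comparisons; black circles use all 9 libraries and orange diamonds leave out control replicate 3. Tiparp is the only member whose interval stays above 0 in both fits of each comparison, and the Ptges3 and Ncoa1 estimates against control move toward or across 0 without control replicate 3.

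Other genes of the pathway were examined through lists of related genes. Of all tested genes, 0.113% were called with FICZ, 0.00809% with tryptamine and 0% between the treatments. Without control replicate 3 the shares were 0.805%, 0.199% and 0.136%, so a count of 0 does not set a short list apart from other genes. Of 25 other chaperones and cochaperones 23 were tested, and 0 rose or fell in any of the 3 comparisons, also without control replicate 3. The smallest p-values belonged with FICZ to Fkbp4, an HSP90-binding immunophilin (-0.20 ± 0.10, adjusted p = 0.601), and with tryptamine to Chordc1, an HSP90 cochaperone (0.19 ± 0.10, adjusted p = 0.741). The median of the list was -0.09 with FICZ against -0.01 over all genes, and 0.04 against 0.00 without control replicate 3. Of 23 other coactivators and corepressors, 0 rose or fell; Prmt1, an arginine methyltransferase, had the smallest p-value with FICZ (-0.30 ± 0.13, adjusted p = 0.601). Their median of 0.20 with FICZ became 0.00 without control replicate 3. Of 15 other bHLH-PAS and PAS genes 9 were tested and 0 rose or fell; Arntl, the circadian partner of Clock, had the smallest p-value in both treatments (-0.25 ± 0.15 with FICZ and -0.21 ± 0.15 with tryptamine, adjusted p = 0.603 and 0.741). The median of this list turned from 0.14 to -0.25 with FICZ and from 0.23 to -0.04 with tryptamine when control replicate 3 was left out, with 2 and 3 of 9 genes then above 0.

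Of 17 genes of AhR degradation, nuclear export and ADP-ribosylation, 15 were tested and 0 rose or fell. Parp14, another mono-ADP-ribosyltransferase, averaged 12.03 CPM among controls, 20.9 after FICZ and 16.7 after tryptamine, a FICZ difference of 0.79 ± 0.25 (adjusted p = 0.601), which was 0.53 ± 0.16 without control replicate 3 (adjusted p = 0.151). Of 15 genes listed as AhR targets 11 were tested. The list was chosen with earlier results of these data known, so its counts are a description and not a test. With FICZ 6 rose (Cyp1a1, Xdh, Cyp1b1, Nqo1, Adh7 and Cyp2s1) and with tryptamine 1, Cyp1a1, where 0.113% and 0.00809% of all genes were called. The list had a median of 1.20 and 0.69 against -0.01 and 0.00 over all genes. With control replicate 3 left out, 9 rose with FICZ, among them also Aldh3a1, Nfe2l2 and Cyp1a2, and 7 rose with tryptamine (Cyp1a1, Adh7, Xdh, Nqo1, Cyp1b1, Cyp1a2 and Aldh3a1). In that fit 5 of the 11 were higher with FICZ than with tryptamine: Xdh, Aldh3a1, Cyp2s1, Cyp1a1 and Adh7. Of all genes, that fit called 0.805% with FICZ, 0.199% with tryptamine and 0.136% between the treatments. The FICZ change of Tiparp was smaller than those of the 6 genes called with FICZ over all 9 libraries, which ran from 0.95 ± 0.13 for Cyp2s1 to 4.08 ± 0.10 for Cyp1a1. Those 6 were picked by passing in the same fit, and the other tested genes of the list are not part of this comparison.

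The tested genes whose mean-centred log2 levels over the 9 libraries were most like those of Tiparp were Tmem71, Ugt1a2 and Cldnd1, with root mean square differences of 0.074, 0.103 and 0.125 next to 0.315 for the spread of Tiparp itself. Over the 8 libraries without control replicate 3 they were Pla2g4a, Tmem71 and Hspa4l, at 0.075, 0.077 and 0.077. For Ahr they were Cdca2, Dcbld2 and Tspan2 over 9 libraries and Tead1, Zfp462 and Prune2 over 8, with 0 of 3 in common. For Hsp90ab1 the nearest over 9 libraries were Pcbp2, Ash2l and Tars, for Hsp90aa1 Rbm28, Bmi1 and Csnk1g3, and for the Ptges3 RefSeq transcript 2610001J05Rik, Rbm8a and Sub1. For Arnt, Smarcd1, Taf3 and Plcb3 were replaced by Jkamp, Zc3h15 and Ndufa5, and for Ncoa1, Ttc3, Mllt10 and Ccdc88a by Trdmt1, Maf and D16H22S680E. Of the members, Tiparp shared 1 of its 3 nearest genes between the sets, and the others shared 0.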

How the data were processed

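Total RNA of 9 libraries was sequenced. The deposited tables, 1 for each pair of groups, hold read counts per transcript as whole numbers without normalization, per the file headers, with the authors' p-values and the authors' log2 fold changes of each transcript. The submitters' processing notes name DESeq; its version, the aligner, the counting rule and the build are not given in the sources used. The 9 count columns that occur in several tables were identical.

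Overlapping transcripts seem to share reads (summed over transcripts, counts come to 5.61 to 5.83 times the total of these single transcripts), so 1 transcript, the one with the highest mean count, stood for each gene. Entries with no gene ID (3.56 to 4.23% of counts) were left out. All 9 libraries (11594856 to 16715865 counts) entered 1 fit in edgeR 4.0.16 (R 4.3.3, TMM, filterByExpr, group as the only term, quasi-likelihood test, Benjamini-Hochberg adjustment over all 12362 genes kept, called under 0.05). The procedure was run on simulated counts with changes larger than that of Tiparp and no library like control replicate 3. That run therefore does not cover these features of the data. CPM are edgeR's count levels scaled to the TMM-adjusted library size; ratios over listed transcripts and values of Arnt2 and Ahrr use unscaled totals. SE is the log2 fold change over the square root of F. Limits for 0 counts use 3 counts over a group.

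The alternatives were DESeq2 size factors, the DESeq2 1.42.0 Wald test, no filter, a stricter filter (10 counts in all libraries of some group), the pair of groups only, a replicate block, sums over transcripts, a per-library length trend, and each library left out. Named genes were the 9 members, Cyp1a1, every list gene that passed with all libraries or without control replicate 3, otherwise up to 2 genes with the smallest p, and the 3 genes nearest each member in mean-centred log2 CPM. The members and lists were chosen with earlier results of these data known. Promoters are RefSeq windows of GRCm38.p6, found for 6 of 9 members; no coordinates of the deposited tables are used.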

Additional observations from a re-analysis of the deposited data

How the results depend on the processing

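Cyp1a1 passed with FICZ and with tryptamine in all 17 alternatives. Genes called with FICZ numbered 14, and 54 with the DESeq2 Wald test, 26 without a filter, 2 with the pair of groups only, 4 with the replicate block, 4 with sums over transcripts, 51 with the length trend, and 4 to 101 when 1 library was left out, 101 without control replicate 3. With tryptamine 1 gene was called, and 12, 2, 2 and 6 with the Wald test, no filter, sums and length trend, and 1 to 25 when 1 library was left out. Between FICZ and tryptamine 0 genes were called, and 10 with the Wald test, 17 with the pair only, 5 with the length trend, and 0 to 17 when 1 library was left out. The member called with FICZ, Tiparp, became 0 members with the pair only, the replicate block and sums, and 0 to 1 when 1 library was left out; members called stayed at 0 to 0 in the other comparisons. Replicate numbers were not taken as pairs: deviations of same-numbered libraries correlated at -0.05 to 0.11 across genes, and 1 of 9 pairs exceeded 0.1.

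Signs of uncalled members turned when 1 library was left out, and the cause was not tested. For FICZ minus control the log2 difference ran from -1.02 to 0.021 for the Ptges3 clone, from -0.46 to 0.16 for the Ptges3 RefSeq transcript and from -0.013 to 0.55 for Ncoa1. For tryptamine minus control it ran from -0.10 to 0.15 for Ahr, from -0.0036 to 0.24 for Arnt, from -0.93 to 0.10 for the Ptges3 clone and from -0.49 to 0.13 for the Ptges3 RefSeq transcript. In these 7 results the turned value is the one without control replicate 3, and Ahr was also -9.7e-05 without tryptamine replicate 3 and -0.11 with the length trend. For FICZ minus tryptamine it ran from -0.030 to 0.113 for Arnt (turned without tryptamine replicate 3), from -0.193 to 0.058 for the Ptges3 clone (without FICZ replicate 1) and from -0.11 to 0.059 for Ncoa1 (without FICZ replicate 2). Taking the shortest or longest transcript within 1% of the highest count moved 2 of 12 control levels per kilobase by more than 1 SD, Tiparp to 8.74 and Hsp90aa1 to 204, without a change of order.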
